A study of Mus musculus with 24 samples.

Results

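Activation of a T lymphocyte runs in stages. Engagement of the T cell receptor first switches on immediate early transcription factors and cytokine genes, then the cell enlarges its ribosomes and its metabolism, and only afterwards does it copy its DNA and divide. The interval between 6 h and 24 h of stimulation spans the passage from the early response to growth and entry into the cell cycle, and it was examined here in the 6 libraries of wild type (WT) cells sampled at these times, out of 24 libraries in the series. The libraries were chosen by their labels: WT 6 h and WT 24 h, 3 of each, 1 per mouse at each time, so that every mouse is compared with itself.

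The cells were splenic CD4+ T cells of WT C57BL6 mice with the numbers 1, 3 and 4, cultured and stimulated with antibodies against CD3 and CD28. CD3 belongs to the T cell receptor complex and CD28 is its main costimulatory receptor. The remaining libraries hold the same mice at 0 h and 3 h, and 3 Aim2-/- mice (numbers 1, 2 and 4) at all 4 times. Aim2 encodes a sensor of cytosolic DNA. The labels name CD4+ T cells of the spleen with no further sort into naive, memory or regulatory cells. Each library holds the bulk RNA of the cells of 1 mouse at 1 time.

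The 6 libraries held 20440765 to 21627018 counts each. Values are in CPM, counts scaled to a common library size with TMM factors, and are given in the order of the mouse labelled WT 1, mouse WT 3 and mouse WT 4. A gene is called when the adjusted p of edgeR's quasi-likelihood test, fitted on all 24 libraries with the mouse as a block, is under 0.05. CPM are relative values, and in bulk RNA fewer cells that express a gene and less of its RNA per cell cannot be told apart.

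One mouse stood apart from the other WT mice in Aim2. Aim2 was measured at 11.5, 33.0 and 32.5 CPM at 6 h and at 5.57, 34.0 and 38.6 CPM at 24 h. Thus the animal with the label WT 1 lay far below the other WT mice at both times, and within the range of the Aim2-/- libraries at 24 h, which was 5.28 to 7.15 CPM. At 6 h its Aim2 level was just above the highest Aim2-/- library, at 11.4 CPM. It was also above every Aim2-/- library at 0 h (21.5 CPM against 15.7 to 20.1 CPM) and at 3 h (16.98 CPM against 14.6 to 15.1 CPM). The other WT mice had at least 67.5 CPM at 0 h and at least 50.6 CPM at 3 h. Whether the label is wrong was not tested. The 6 h library of this mouse also stood apart from the 6 h libraries of the other mice in the cell cycle genes described below. Counts of calls in a gene list are therefore also given without this mouse, and where no such count is given it was the same. Between 6 h and 24 h the Aim2 change over all WT mice was -0.14 ± 0.17 (log2, SE, adjusted p = 0.481), and without the mouse labelled WT 1 it was 0.15 (adjusted p = 0.381). The change was thus not called either way, and its sign depended on that mouse.

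The markers of CD4 T cells were abundant at both times, with a summed level of 5798 to 6407 CPM at 6 h and 4794 to 5217 CPM at 24 h over 10 genes. Of these 10, 6 were called lower and 1 higher. Listed markers of other cells were low, and several fell. Myeloid markers summed to 29.9 to 62.5 CPM at 6 h and 15.9 to 30.3 CPM at 24 h, with 8 of 10 called lower. NK cell markers fell in 5 of 6, from 64.4 to 74.8 CPM down to 23.1 to 32.1 CPM. Dendritic cell markers fell in 3 of 5 tested, from 13.9 to 20.3 CPM down to 3.904 to 5.52 CPM, and Clec9a was at 0 at 24 h. B cell markers summed to 7.83 to 13.2 CPM at 6 h and 4.62 to 7.29 CPM at 24 h, with 4 of 8 tested called lower. CD8 T cell markers summed to 7.74 to 8.95 CPM at 6 h and 10.8 to 12.2 CPM at 24 h, and erythroid markers to 10.8 to 67.3 CPM and 9.76 to 31.8 CPM. When WT 1 was left out, the numbers called lower were 6 of the myeloid, 4 of the dendritic, 3 of the B cell and 4 of the erythroid markers. The part of such cells in the falls reported below was not tested.

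The change touched most of the transcriptome. Of 15325 genes tested, 10011 were called, or 65.3%, of which 5024 were higher at 24 h (32.8%) and 4987 were lower (32.5%). Changes of more than log2 1 were called in 4366 genes, or 28.5%, and changes of more than log2 3 in 333 rises and 317 falls. Without the mouse labelled WT 1, 8906 genes were called, 4521 higher and 4385 lower. Because so many genes were called, a list of genes stands out in what follows by the share of its members that moved 1 way and by the size of the move, read against these percentages and against a median of -0.04 over all genes tested.

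**Figure D1:**
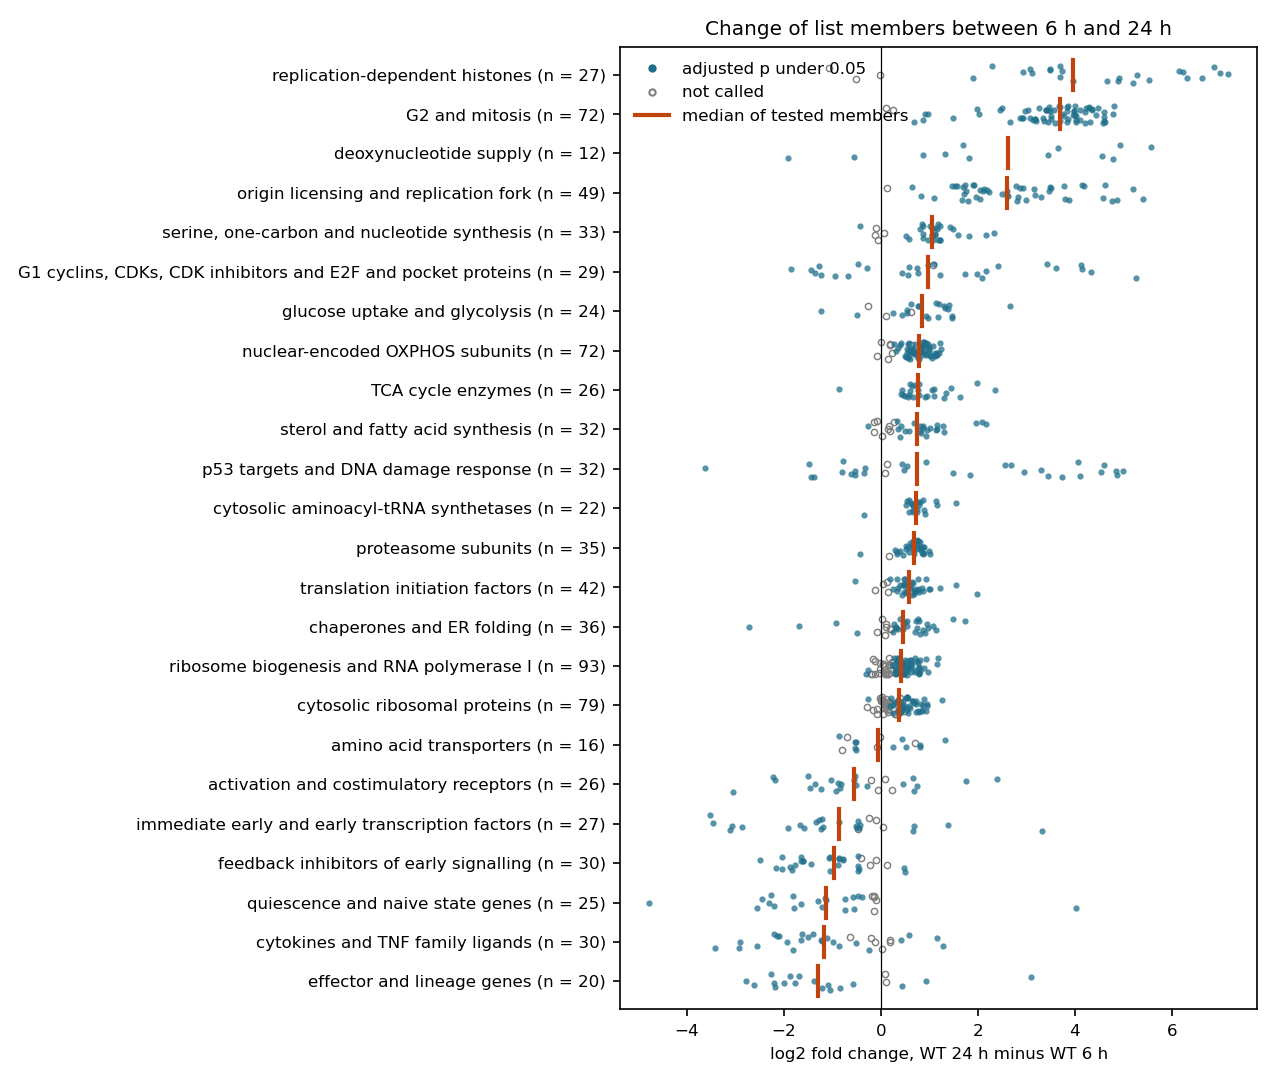
Log2 fold change between WT 6 h and WT 24 h (x axis) for every tested member of 24 gene lists (rows, with the number tested), filled where the adjusted p is under 0.05, with the median of each list as a vertical bar. The median of the histone list is not read as a result. Its members near 0 at 6 h passed the count filter only through libraries in which they were higher. The replication and mitosis lists lie almost wholly to the right of 0, with medians of 2.61 and 3.69. The early response and quiescence lists lie mostly to the left, with medians between -0.55 and -1.16. The effector and lineage list has a median of -1.30.

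Most early transcription factors were lower at 24 h than at 6 h. Of 27 early transcription factors, 19 were lower, 4 were higher and 4 were not called, with a median of -0.87. Leaving out WT 1 gave the same counts. Fos, a subunit of the AP-1 factor, stood at 43.8, 63.3 and 58.5 CPM at 6 h and at 6.89, 9.50 and 6.51 CPM at 24 h. It fell by 2.85 ± 0.12 on the log2 scale (SE, adjusted p = 8.7e-14). Nr4a1, an orphan nuclear receptor switched on by receptor signalling, went from 1569, 1813 and 1799 CPM to 188, 204 and 212 CPM, 8.58-fold lower. The groups did not overlap for either gene, and every mouse showed the fall. Nr4a1 had stood at a mean of 994 CPM at 0 h and 2405 CPM at 3 h, whereas Fos was highest at 0 h, with a mean of 84.4 CPM.

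The largest falls of this list were those of Fosl2, at -3.51, Fosb, at -3.46, or -4.05 without the mouse labelled WT 1, and Nr4a1, at -3.10. Fosl2 and Fosb encode further AP-1 subunits. Both had been falling since 0 h, where their means were 1186 and 115 CPM against 311 and 16.96 CPM at 6 h, and in all 9 of the 27 factors had their highest WT mean at 0 h and 8 at 6 h. Egr1, a zinc finger factor of the MAP kinase pathway, stood at 495, 606 and 561 CPM at 6 h and at 182, 189 and 183 CPM at 24 h, so that it had fallen 2.99-fold while remaining above its mean of 66.8 CPM at 0 h. Irf4, which scales with receptor signal strength, went from 1515, 1598 and 1495 CPM to 1011, 1153 and 1098 CPM, a smaller fall of 0.50 ± 0.16 on the log2 scale (adjusted p = 0.0084).

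Myc did not follow these factors. It encodes the transcription factor that drives growth of activated T cells, and it stood at 628, 823 and 719 CPM at 6 h and at 588, 706 and 718 CPM at 24 h. The groups overlapped and the change was -0.10 ± 0.13 (adjusted p = 0.483), beside a mean of 77.8 CPM at 0 h. Myc was thus about as high at 24 h as at 6 h in each mouse, and high against 0 h at both times. In the opposite direction to the list, Batf3 rose by 3.32 ± 0.30 from a low level, from 0.399, 0.827 and 0.487 CPM to 3.899, 6.01 and 7.34 CPM. Irf8 rose by 1.39 and Batf by 0.68. These are the partners with which IRF and AP-1 factors bind DNA together.

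Brakes on early signalling were lower too. Of 30 feedback inhibitors, 24 were lower and 2 were higher, with a median of -0.96, and without the mouse labelled WT 1 the numbers were 24 and 1. Tnfaip3, the A20 ubiquitin editing enzyme that limits NF-kappaB, went from 605, 494 and 611 CPM to 102, 94.4 and 108 CPM, 5.60-fold lower. Dusp1, a MAP kinase phosphatase, fell by 2.15 on the log2 scale, and Zfp36, which destabilises cytokine messages, fell by 2.04. Tnfaip3 was already falling by 6 h, since its mean was 2577 CPM at 0 h and 1200.4 CPM at 3 h. The 2 rises were small, 0.51 for Socs2 and 0.47 for Dusp4, and neither call was stable. That of Socs2 was lost without the mouse labelled WT 1 (adjusted p = 0.0659) and without the replicate block (adjusted p = 0.0815). That of Dusp4 was lost without the block (adjusted p = 0.205), without mouse WT 3 or WT 4 (adjusted p = 0.1498 and 0.0653), and without their 6 h libraries or the 24 h library of WT 3 (adjusted p = 0.0577 to 0.0919). Dusp4 was the more variable of the pair, at 97.0, 42.3 and 45.3 CPM at 6 h.

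Most cytokine genes fell, and a few rose. Of 30 cytokine and TNF family ligand genes tested, 20 were lower at 24 h, 4 were higher and 6 were not called, with a median of -1.16. When WT 1 was left out, 19 were lower and 2 were higher. Il2, the growth factor of T cells, was among the rises. It stood at 80.5, 53.2 and 64.2 CPM at 6 h and at 139, 149 and 148 CPM at 24 h, a rise of 1.17 ± 0.16 (adjusted p = 1.6e-06), and every mouse showed it. Il3 rose by 1.29 ± 0.35 (adjusted p = 0.00302), a call that was lost without the replicate block (adjusted p = 0.0512), without the 24 h library of WT 4 (adjusted p = 0.0588) and without mouse WT 3 (adjusted p = 0.0602). Lta, encoding lymphotoxin alpha, rose by 0.58 ± 0.18 (adjusted p = 0.00937), a call that was lost without the mouse labelled WT 1 (adjusted p = 0.0923), without its 24 h library (adjusted p = 0.0514) and without mouse WT 4 (adjusted p = 0.0572).

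Ifng, the signature cytokine of Th1 cells, differed more between mice than between times. It measured 99.1, 63.1 and 121 CPM at 6 h and 103, 63.3 and 121 CPM at 24 h, a change of 0.02 ± 0.22 (adjusted p = 0.946). In contrast, Il4, the signature cytokine of Th2 cells, went from 58.0, 82.8 and 193 CPM to 8.91, 11.8 and 21.4 CPM, 7.54-fold lower, with each mouse keeping its place in the order. Il17a, of Th17 cells, went from 18.2, 7.44 and 12.2 CPM to 3.49, 1.49 and 1.54 CPM, and Il17f fell by 2.92 on the log2 scale. Ccl5, a chemokine stored by memory and effector cells, fell by 3.41 from 64.5, 50.8 and 60.5 CPM. Cd40lg, the ligand with which helper cells stimulate B cells, went from 257, 242 and 255 CPM to 78.5, 84.2 and 77.3 CPM, 3.14-fold lower.

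Receptor genes changed in both directions. Of 26 activation and costimulatory receptors, 16 were lower and 6 were higher (median -0.55). Cd69, the early activation antigen that retains cells in lymphoid tissue, went from 466, 656 and 572 CPM to 185, 216 and 199 CPM, 2.81-fold lower. Tnfrsf9, the costimulatory receptor 4-1BB, fell by 2.17, Il18r1 by 3.04 and Il7r, the receptor for the survival cytokine of resting cells, by 2.22 on the log2 scale. Il2ra, the high affinity chain of the IL-2 receptor, stood at 948, 852 and 881 CPM at 6 h and at 775, 759 and 781 CPM at 24 h. Its groups did not overlap, but the change of -0.21 ± 0.13 was not called (adjusted p = 0.150).

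Among the rises, Lag3, an inhibitory receptor, went from 78.7, 31.1 and 32.5 CPM to 223, 194 and 209 CPM, with WT 1 the high one at 6 h. Il12rb1, a chain of the IL-12 receptor, rose 3.39-fold. Tfrc, the transferrin receptor that brings iron into growing cells, went from 359, 332 and 301 CPM to 552, 602 and 501 CPM, a rise of 0.74 ± 0.14 (adjusted p = 7.7e-05).

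The programme of resting T cells continued to decline after 6 h. Of 25 quiescence and naive state genes, 19 were lower, 1 was higher and 5 were not called, with a median of -1.12. Leaving out WT 1 gave 20 lower and 1 higher. Klf2, the factor that keeps T cells quiescent and recirculating, measured 183, 234 and 305 CPM at 6 h and 40.5, 30.8 and 62.4 CPM at 24 h. S1pr1, the receptor for exit from lymphoid organs and a known target of Klf2, fell 5.88-fold. Both Klf2 and S1pr1 were lower in every mouse without overlap.

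Most of these genes were already past their peak at 6 h. Over the 25 genes, the median log2 ratio of mean levels was -1.35 for 6 h over 0 h and -1.14 for 24 h over 6 h, and 20 of the 25 had their highest WT mean at 0 h. These ratios share the 6 h libraries. Ramp3, a receptor activity modifying protein, had the largest fall of the list, from 83.9, 93.5 and 110.1 CPM to 2.99, 3.13 and 4.36 CPM. Tcf7 and Lef1, the factors of naive and stem-like T cells, were not called, at -0.13 and -0.10 (adjusted p = 0.3101 and 0.408). The exception was Dapl1, which rose by 4.03 ± 0.15, from 2.61, 3.94 and 3.36 CPM to 53.2, 59.3 and 48.2 CPM. It had stood at a mean of 9.20 CPM at 0 h.

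Genes that specify T cell lineages were lower in the main. Of 20 effector and lineage genes, 15 were lower and 3 were higher, with a median of -1.30. Foxp3, the factor of regulatory T cells, went from 257, 189 and 253 CPM to 62.9, 34.5 and 49.9 CPM, 4.80-fold lower, after rising from a mean of 104 CPM at 0 h to 266 CPM at 3 h. Bcl6, the factor of follicular helper cells, fell by 2.62 and Gzmk, a granzyme of memory cells, by 2.78 on the log2 scale. Gzmb, the cytotoxic granzyme B, moved the other way, from 19.0, 16.4 and 28.6 CPM to 169, 145 and 227 CPM, an 8.53-fold rise. Tbx21, encoding the Th1 factor T-bet, rose from 109, 120.3 and 144 CPM to 220.4, 247 and 244 CPM. Gata3 of Th2 cells was not called, at 0.08 (adjusted p = 0.406, named after its value was seen).

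**Figure D2:**
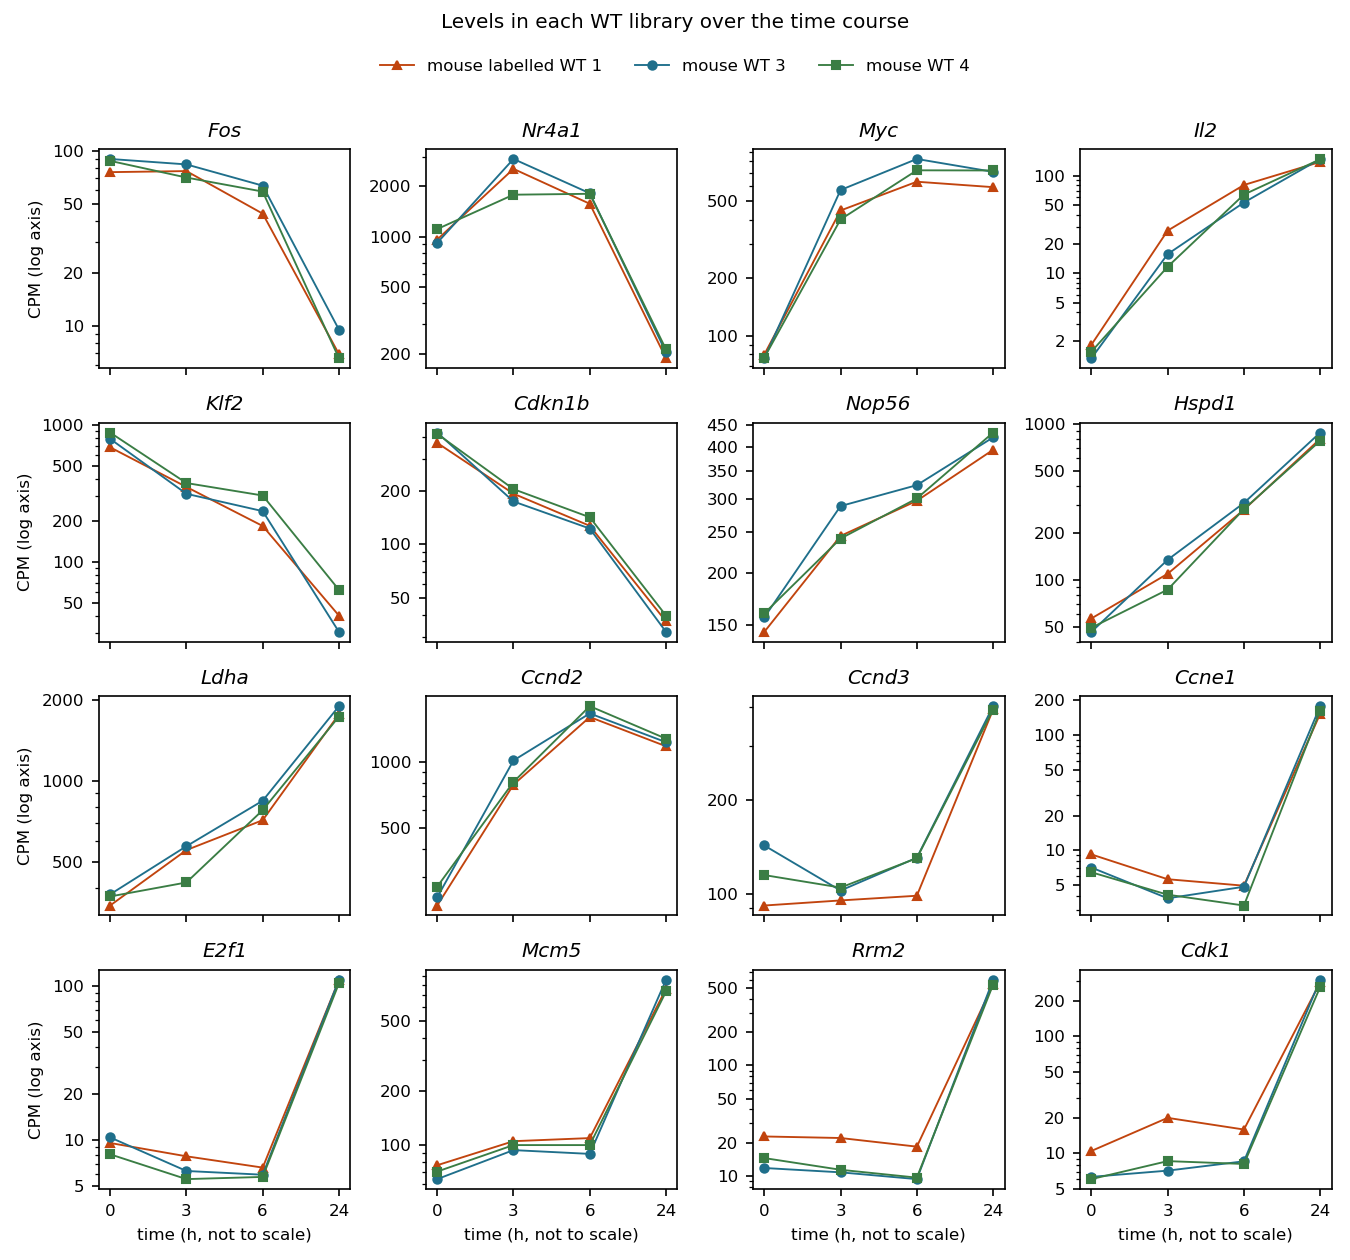
CPM (log axis) of 16 genes in the WT libraries at 0, 3, 6 and 24 h (x axis, not to scale), 1 line per mouse. Fos, Nr4a1, Klf2 and Cdkn1b drop between 6 h and 24 h, Myc and Ccnd2 reach their level by 6 h, Nop56, Hspd1 and Ldha climb at every step, and Ccne1, E2f1, Mcm5, Rrm2 and Cdk1 are low until 6 h and high at 24 h.

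Entry into S phase is governed by cyclin-dependent kinases. Cyclin D with Cdk4 or Cdk6, and then cyclin E with Cdk2, inactivate the retinoblastoma proteins and free the E2F factors, while the inhibitors p27 and p21 hold the kinases back. In this group of 29 genes, 19 rose, 9 fell and 1 was not called (median 0.98), and without the mouse labelled WT 1 the numbers were 19 and 6. The D cyclins did not move together. Ccnd2 had risen early, to 1594, 1655 and 1786 CPM at 6 h, and stood at 1174, 1225 and 1271 CPM at 24 h, a fall of 0.46 ± 0.14 (adjusted p = 0.00707). Without the replicate block it was not called (adjusted p = 0.0539). Ccnd3 went from 98.4, 131 and 130.2 CPM to 394, 404 and 394 CPM, a 3.35-fold rise. Their kinases rose, Cdk4 from 276, 352 and 307 CPM to 697, 753 and 737 CPM, and Cdk6 by 0.75 ± 0.13.

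The step of cyclin E showed the largest rise of the group. Ccne1 (ENSMUSG00000002068) stood at 4.92, 4.82 and 3.31 CPM at 6 h and at 153, 178 and 163 CPM at 24 h, a rise of 5.26 ± 0.26 on the log2 scale (adjusted p = 4.5e-13). Ccne2 rose 20.1-fold. E2f1, the founding activator E2F, went from 6.60, 5.94 and 5.74 CPM to 109.7, 110.02 and 104 CPM, 17.8-fold higher. The 6 h levels of Ccne1 and E2f1 were no higher than those at 0 h, where the means were 7.57 CPM for Ccne1 and 9.33 CPM for E2f1.

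Some of the brakes moved the other way. The 3 given here had the largest falls of the group among members of at least 5 CPM in the higher group. Its other inhibitors and retinoblastoma proteins are not given here. The 9 falls of 29 stand beside 32.5% of all genes tested that were called lower. Cdkn1b, encoding p27, fell from 127, 123 and 142 CPM to 36.8, 32.1 and 39.7 CPM, 3.61-fold, and it had stood at a mean of 405 CPM at 0 h. Cdkn1a, encoding p21, fell by 1.44 ± 0.15 on the log2 scale, and Rbl2, the retinoblastoma relative p130 of resting cells, went from 88.3, 73.4 and 87.9 CPM to 42.9, 40.4 and 46.0 CPM. Each of the 3 was lower in every mouse without overlap.

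Nearly every gene that licenses origins or works at the replication fork rose. Of 49 genes, 48 were higher and none was lower, with a median of 2.61, and without the mouse labelled WT 1 again 48 were higher. The exception was Orc4, a subunit of the origin recognition complex, at 0.12 (adjusted p = 0.223, named after its value was seen). Mcm2 and Mcm5, subunits of the replicative helicase, were present at 6 h and rose from there. Mcm2 went from 139.8, 131 and 133 CPM to 602, 682 and 612 CPM, and Mcm5 from 109, 88.7 and 99.5 CPM to 760.5, 856 and 735 CPM. Pcna, the sliding clamp of the polymerases, went from 129, 143 and 135 CPM to 486, 573 and 519 CPM, 3.88-fold higher.

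Genes that load and fire the helicase rose as well. Cdc6, which loads it on origins, went from 8.02, 3.65 and 4.28 CPM to 131, 161 and 148 CPM, 29.2-fold higher. Cdt1, its partner, rose 3.31-fold, from 62.6, 72.0 and 74.2 CPM. Mcm10, which acts when origins fire, rose by 5.41 ± 0.29 and Orc1 by 5.20 ± 0.23. Uhrf1, which keeps DNA methylation at the fork, went from 26.5, 14.3 and 17.03 CPM to 481, 548 and 481 CPM. In Cdc6 and Uhrf1 the mouse labelled WT 1 was the high one at 6 h, though far below every 24 h library.

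Most genes of deoxynucleotide supply rose, like those of the fork. Of 12 genes 10 rose and 2 fell. Rrm2, the S phase subunit of ribonucleotide reductase, went from 18.4, 9.34 and 9.63 CPM to 543, 598 and 541 CPM, 47.7-fold higher. Tyms, thymidylate synthase, went from 11.2, 6.23 and 6.86 CPM to 174, 200.4 and 178 CPM, and Tk1, thymidine kinase, rose 30.6-fold. The 2 falls were Samhd1, the enzyme that destroys deoxynucleotides, from 1861, 2084 and 2993 CPM to 526, 561 and 723 CPM, and Rrm2b, the subunit used outside S phase, by 0.55 ± 0.11 on the log2 scale. Neither fall had overlapping groups, and both were seen in each mouse.

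Replication-dependent histone genes encode the histones that package new DNA. Of 37 in the list 27 had enough counts to be tested. Members near 0 at 6 h passed this filter only through libraries in which they were higher, so no count or median over the members is used here. Hist1h2bj rose from 7 counts in all 3 libraries at 6 h to 673 counts at 24 h, or from 0.0886, 0.0487 and 0.195 CPM to 10.1, 13.1 and 11.2 CPM. Hist1h3a went from 0.177, 0.0487 and 0.146 CPM to 4.25, 5.50 and 5.49 CPM. These messages mostly lack the poly(A) tail by which the library kit picks out mRNA, and the genes are near-identical copies of each other. Their levels are therefore uncertain, and with a minimum mean of 1 CPM only 5 members were called higher.

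The genes of G2 and mitosis rose as well. Of 72 genes, 70 were higher and none was lower, with the same counts without the mouse labelled WT 1, and the median was 3.69. Cdk1 (ENSMUSG00000019942), the kinase that drives mitosis, went from 16.0, 8.56 and 8.13 CPM to 289.99, 305 and 265 CPM, a rise of 4.80 ± 0.25 (adjusted p = 8.8e-13). Its cyclins followed, Ccna2 from 25.1, 10.5 and 10.8 CPM to 295, 322 and 285 CPM, and Ccnb1 from 3.19, 1.90 and 1.80 CPM to 37.9, 42.7 and 34.1 CPM. The groups were far apart in all 3, and WT 1 was above the other mice in each at 6 h.

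Kinases and structural genes of division were among them. Aurkb, the kinase of the chromosomal passenger complex, rose 27.5-fold, and Plk1, which acts at entry and exit of mitosis, rose 16.0-fold. Top2a, which untangles sister chromatids, went from 96.4, 42.5 and 49.2 CPM to 1022, 1155 and 973 CPM, and Mki67, the source of the proliferation antigen Ki-67, from 132, 57.7 and 64.9 CPM to 839, 946 and 796 CPM. Foxm1, the factor that drives mitotic genes, rose 7.90-fold. The members not called were Lin54 and Pttg1, at 0.26 and 0.11 (adjusted p = 0.0676 and 0.247, named after their values were seen).

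The share of all counts taken up by these lists shows the same on the scale of the whole library. The replication list held 0.254, 0.221 and 0.223% of counts at 6 h and 1.19, 1.31 and 1.20% at 24 h. The mitosis list held 0.178, 0.112 and 0.120% at 6 h and 0.969, 0.998 and 0.895% at 24 h, a 6.98-fold rise of the mean. Both rose in 3 of 3 mice. With 3 pairs an exact two-sided sign-flip permutation test cannot go below p = 0.25, which each list gave, and an exact permutation test of 3 against 3 libraries cannot go below 0.1, which each list also gave.

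**Figure D3:**
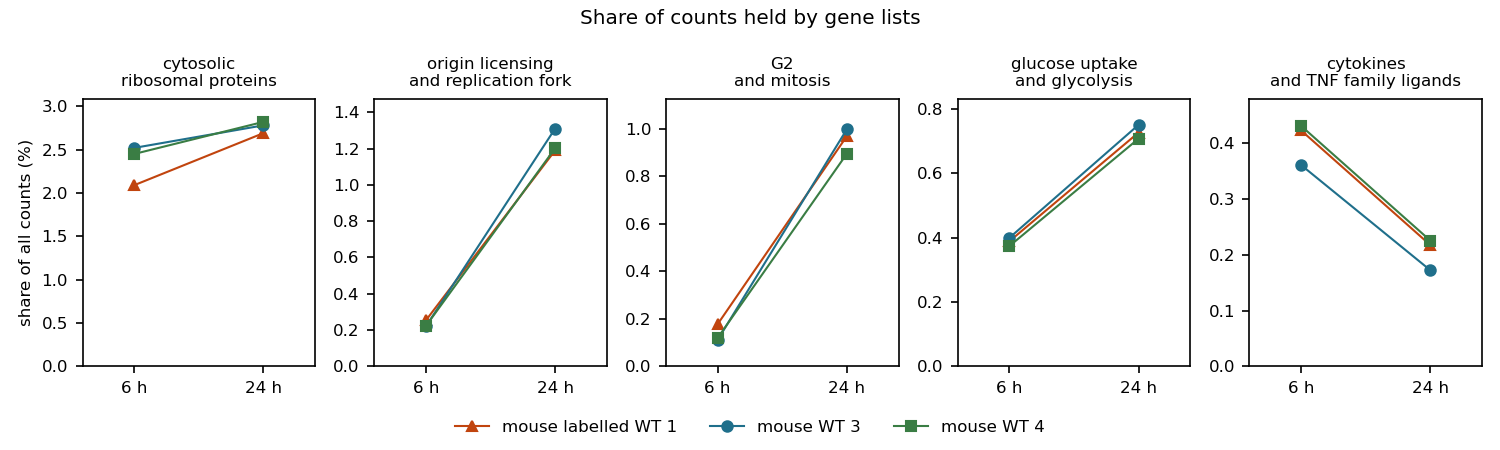
Share of all counts (%) held by 5 gene lists at 6 h and 24 h, 1 line per mouse. The replication and mitosis shares rise from at most 0.254% to at least 0.895%, the glycolysis share rises from 0.387% to 0.729% on average, and the cytokine share falls from 0.404% to 0.205%.

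Genes of the p53 pathway and the DNA damage response changed in both directions. Of 32 tested, 19 rose and 11 fell. Exo1, an exonuclease of repair, rose 28.9-fold. Clspn, an adaptor of the replication checkpoint, went from 7.53, 2.24 and 3.16 CPM to 116, 141 and 121 CPM. The mouse labelled WT 1 was the high one at 6 h, and without it the rise of Clspn was 5.61 on the log2 scale. The largest falls were those of Trp53inp1, at -3.63, Bbc3, which promotes apoptosis, at -1.48, and Cdkn1a, at -1.44. Trp53inp1 went from 468, 449 and 405 CPM to 40.5, 26.7 and 40.6 CPM.

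Short DNA elements in the promoters of cycle genes are well known. E2F factors bind a GC-rich element in genes of the G1/S step, whereas the DREAM and MuvB complexes, with B-Myb and Foxm1, act on the cell cycle genes homology region (CHR) in genes of G2 and mitosis, often beside CCAAT boxes bound by NF-Y. The RefSeq promoters were therefore read for both groups, in GRCm38.p6, over the 250 bases before the transcription start. The genes printed are the 4 members of each list with the largest rise among those in the table. Each line gives the last 150 bases before the start, 5′ to 3′ on the strand of the gene. In the replication genes, capitals mark the E2F-type elements TTTCCCGC, TTTGGCGC, TTTCGCGC, TTCCCGCC, TTGGCGCC or TTCGCGCC on either strand, some of which overlap.
Mcm10, chr2:5012792-5012941, minus strand: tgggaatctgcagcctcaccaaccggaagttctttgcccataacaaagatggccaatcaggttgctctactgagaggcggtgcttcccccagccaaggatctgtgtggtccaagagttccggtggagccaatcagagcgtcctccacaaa
Orc1, chr4:108579304-108579453, plus strand: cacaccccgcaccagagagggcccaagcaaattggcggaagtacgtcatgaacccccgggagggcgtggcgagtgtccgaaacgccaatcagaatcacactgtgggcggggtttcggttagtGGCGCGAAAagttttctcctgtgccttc
Cdc6, chr11:98908001-98908150, plus strand: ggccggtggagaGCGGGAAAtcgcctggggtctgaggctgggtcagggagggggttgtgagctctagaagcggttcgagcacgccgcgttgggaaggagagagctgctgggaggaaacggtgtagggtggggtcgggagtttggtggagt
Uhrf1, chr17:56303187-56303336, plus strand: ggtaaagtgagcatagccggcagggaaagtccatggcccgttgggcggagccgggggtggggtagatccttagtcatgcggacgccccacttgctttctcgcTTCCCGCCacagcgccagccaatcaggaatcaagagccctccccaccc

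Of these, Mcm10 has none of the 6 elements in the window, Orc1 has an overlapping pair that begins 28 bases before the start, Cdc6 has 1 that begins 138 bases before it, and Uhrf1 has 1 at 48 bases. CCAAT boxes, left in lower case here, begin at 98 and 23 bases in Mcm10, at 120 and 66 in Orc1 and at 30 in Uhrf1. Uhrf1 has 2 starts in the table and the first listed was used. In the mitosis genes below, capitals mark the CHR element TTTGAA and the CCAAT box, on either strand. Aurkb and Pbk, which rank among the largest rises, have no entry in the table.
Cdk1, chr10:69352913-69353062, minus strand: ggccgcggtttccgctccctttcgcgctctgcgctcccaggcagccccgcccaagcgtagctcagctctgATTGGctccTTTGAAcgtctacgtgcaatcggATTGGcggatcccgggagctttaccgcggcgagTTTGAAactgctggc
Bub1, chr2:127831860-127832009, minus strand: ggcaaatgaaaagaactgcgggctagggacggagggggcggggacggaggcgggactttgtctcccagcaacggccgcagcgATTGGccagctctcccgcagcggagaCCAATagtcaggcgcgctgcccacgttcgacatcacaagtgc
Cenph, chr13:100775900-100776049, minus strand: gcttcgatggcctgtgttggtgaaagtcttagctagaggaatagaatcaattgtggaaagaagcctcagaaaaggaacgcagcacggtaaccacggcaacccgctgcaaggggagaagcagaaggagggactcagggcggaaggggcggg
Cdca5, chr19:6084947-6085096, plus strand: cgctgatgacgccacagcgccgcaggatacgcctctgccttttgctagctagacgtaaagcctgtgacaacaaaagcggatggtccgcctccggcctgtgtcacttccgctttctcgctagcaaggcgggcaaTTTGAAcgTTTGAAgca

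Cdk1 carries 2 CCAAT boxes and 2 CHR elements, the one nearer to the start beginning 15 bases before it. It also carries the E2F-type element TTTCGCGC, left in lower case, which begins 131 bases before the start. Cdca5, encoding sororin, which holds sister chromatids together, carries a pair of CHR elements at 17 and 9 bases before the start. Bub1, a kinase of the spindle checkpoint, carries 2 CCAAT boxes and no CHR, and Cenph, a kinetochore protein, carries neither in this window.

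E2F-type elements were found in 12 of 41 replication promoters (29.3%), in 7 of 22 promoters of the G1 cyclin, CDK and E2F list (31.8%), in 5 of 59 mitosis promoters (8.47%) and in 6.93% of the 10598 promoters of all genes tested. CHR elements were found in 21 of 59 mitosis promoters (35.6%), in 5 of 41 replication promoters (12.2%) and in 10.9% of those of all genes tested. The CCAAT box was found in 40 of 59 mitosis promoters (67.8%), in 22 of 41 replication promoters (53.7%) and in 36.3% of all, and 18 of 59 mitosis promoters (30.5%) held both CHR and CCAAT, against 4.1% of all. Among the other lists, the CCAAT box was found in 18 of 22 promoters of sterol and fatty acid synthesis genes (81.8%) and in 22 of 29 of chaperone genes (75.9%). CHR was also found in 5 of 15 promoters of effector and lineage genes (33.3%) and in 6 of 20 of activation receptors (30.0%). The E-box CACGTG, the element of Myc, was found in 5 of 84 promoters of ribosome biogenesis genes (5.95%) and in 8.28% of all. Its share was higher in initiation factors (6 of 34, 17.6%), synthetases (3 of 14, 21.4%) and amino acid transporters (3 of 13, 23.1%). The same held for deoxynucleotide supply (3 of 10, 30%) and feedback inhibitors (6 of 25, 24%). Other lists lay below the share of all, such as ribosomal proteins (4 of 58, 6.9%), TCA cycle enzymes (1 of 23, 4.35%) and cytokines (0 of 25). The core TGACG of the CRE was found in 9 of 19 promoters of early transcription factors (47.4%), in 25 of 58 of ribosomal protein genes (43.1%) and in 27.0% of all. Over all 27025 promoters in the table, expressed or not, the E2F-type elements were found in 3.76%, CHR in 16.3%, the CCAAT box in 34.5%, the E-box in 6.05% and the CRE core in 17.9%. These are descriptions of sequence with no test, and a match is not a bound site.

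**Figure D4:**
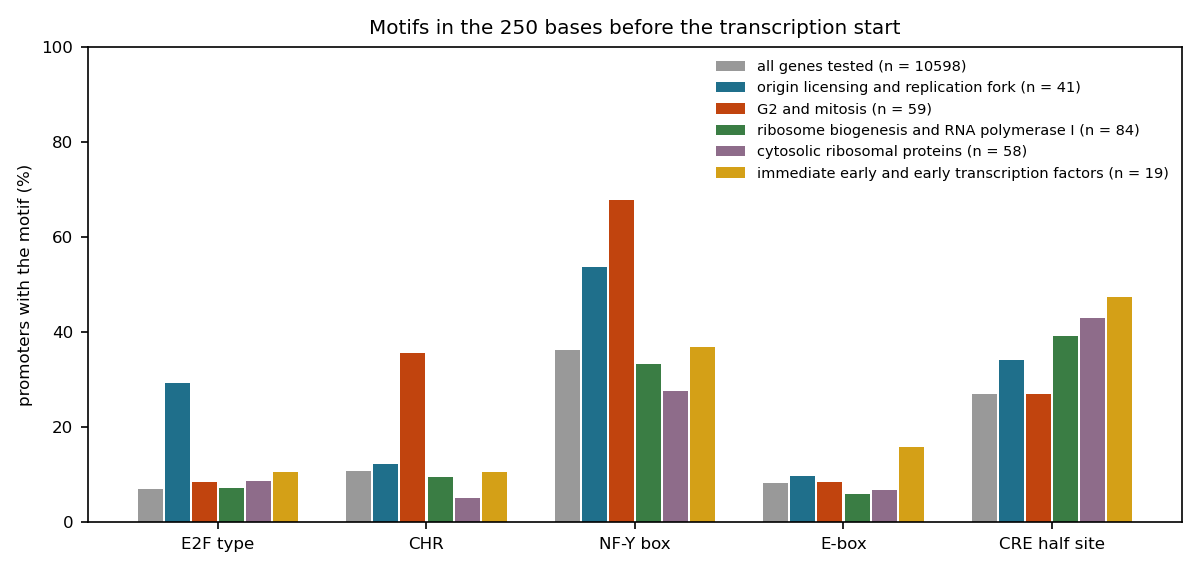
Share of promoters (%, y axis) with each of 5 elements in the 250 bases before the transcription start, for 5 gene lists and for all genes tested, with the number of promoters read. Among the lists drawn, the bar of the replication list is highest for the E2F type at 29.3%, and the bar of the mitosis list is highest for CHR at 35.6% and for the CCAAT box bound by NF-Y at 67.8%.

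The genes of ribosome production had risen mainly before 6 h and rose a little further. Of 93 genes of ribosome biogenesis and RNA polymerase I, 66 were higher at 24 h and 2 were lower, with a median of 0.41, and without the mouse labelled WT 1 the numbers were 59 and 2. The median log2 ratio of mean levels in the list was 1.37 for 6 h over 0 h and 0.40 for 24 h over 6 h, whereas in the replication list it was -0.03 and then 2.60, and in the mitosis list 0.30 and then 3.53. Ncl, encoding nucleolin, went from 3301, 3580.5 and 3310.02 CPM to 5926, 7200.2 and 6480.1 CPM, a rise of 0.94 ± 0.11 (adjusted p = 1.2e-07). Nop56, a core protein of the small nucleolar particles that modify rRNA, went from 297, 324 and 301 CPM to 394, 421 and 433 CPM, 1.35-fold higher. Polr1b, the second largest subunit of RNA polymerase I, stood at 223, 236 and 206 CPM and then at 235, 248 and 229.7 CPM, a change of 0.10 ± 0.12 (adjusted p = 0.491) with overlapping groups.

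The largest rises in this list were those of Lyar, at 1.19, Npm1, the nucleolar chaperone nucleophosmin, at 1.16, and Nhp2, a protein of pseudouridylation particles, at 0.98. The 2 falls were Ddx10, at -0.30, and Dhx33, at -0.27, both helicases. Dhx33 was not called without the mouse labelled WT 1 (adjusted p = 0.113), without the replicate block (adjusted p = 0.115) or without any of 5 other libraries or mice (adjusted p = 0.0518 to 0.0984).

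Of 79 ribosomal protein genes, 47 were higher and 1 was lower, with a median of 0.38. Without the mouse labelled WT 1, 36 were higher and 1 was lower, with a median of 0.29. The list held 2.09, 2.52 and 2.45% of counts at 6 h and 2.69, 2.78 and 2.82% at 24 h, and the low value was that of the mouse labelled WT 1. Rpl13a rose most, by 1.27 ± 0.09, from 67.6, 79.8 and 75.3 CPM to 184, 176 and 174 CPM. Many ribosomal protein genes have processed pseudogenes with near-identical sequence, and their counts are uncertain. The lower member was Rps15a, at -0.26 (adjusted p = 0.0441), with overlapping groups, and its call was lost, among other settings, without the replicate block (adjusted p = 0.151) and without mouse WT 3 or WT 4 (adjusted p = 0.212 and 0.0923).

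Translation factors and the enzymes that charge tRNA mostly rose. Of 42 initiation factors 37 were higher and 1 was lower (median 0.57), or 35 and 1 without the mouse labelled WT 1, and of 22 cytosolic aminoacyl-tRNA synthetases 21 were higher and 1 was lower (median 0.73). Eif4e, the cap binding protein, went from 86.8, 101 and 91.0 CPM to 132, 129 and 121 CPM, and Eif5a, which helps ribosomes through stalling sequences, from 1122, 1405 and 1253 CPM to 2265, 2336 and 2194 CPM. Eif4ebp1, the repressor of Eif4e, had the largest rise of the list, 3.94-fold. Mars, which charges methionine, rose 2.94-fold. The lower synthetase was Wars, which charges tryptophan and responds to interferon, at -0.34 ± 0.08 (adjusted p = 0.00141), from 268, 281 and 329.9 CPM to 211, 233 and 248 CPM.

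Amino acid transporters did not rise as a group. Of 16, 6 were higher and 5 were lower, with a median of -0.05, and without the mouse labelled WT 1 the numbers were 5 and 5. Slc7a5, the large neutral amino acid transporter on which activated T cells depend, went from 293, 292 and 261 CPM to 389, 408 and 350.2 CPM, a rise of 0.44 ± 0.15 (adjusted p = 0.0127). Without the replicate block it was not called (adjusted p = 0.0576), nor without mouse WT 3 (adjusted p = 0.0659) or its 6 h library (adjusted p = 0.0596). Slc1a5, a glutamine transporter, went from 900.2, 1137 and 961 CPM to 725, 659 and 686 CPM, a fall of 0.53 ± 0.13. Slc43a1 rose by 1.33, and Slc38a9, the arginine sensor of the lysosome, fell by 0.85. Without the replicate block only 2 transporters were called higher.

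Glycolysis rose. Of 24 genes tested 19 were higher and 2 were lower, with a median of 0.86, and the share of counts held by the list rose 1.88-fold, in each of the 3 mice. Ldha, lactate dehydrogenase A, went from 714, 844 and 778 CPM to 1769.6, 1897 and 1736 CPM, and Hk2, the inducible hexokinase, from 54.1, 57.1 and 49.97 CPM to 142, 162 and 139.9 CPM. Slc2a1, the glucose transporter Glut1, went from 72.1, 85.4 and 79.1 CPM to 109.6, 110.4 and 97.4 CPM, a smaller rise of 0.43 ± 0.07. The largest rise was that of Tpi1, triosephosphate isomerase, which was 6.36-fold higher. Pfkfb3, which makes an activator of phosphofructokinase, fell by 0.48 ± 0.09. The other fall was that of Hk3, a hexokinase of low level here, at -1.24 ± 0.28, named after its value was seen.

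Most genes of mitochondrial pathways rose. Of 26 genes of the TCA cycle 25 were higher and 1 was lower (median 0.77), and of 72 nuclear-encoded subunits of oxidative phosphorylation 65 were higher and none was lower (median 0.78), or 62 and none without the mouse labelled WT 1. Idh2, the mitochondrial isocitrate dehydrogenase, went from 28.9, 23.0 and 24.8 CPM to 101, 105 and 97.1 CPM. Idh1, its cytosolic counterpart in this list, fell by 0.86 ± 0.18, from 10.1, 7.69 and 10.8 CPM. Uqcr11 and Uqcr10, small subunits of complex III, rose by 1.24 and 1.23, and Ndufa10 of complex I rose by 1.21.

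Most genes of pathways that feed the synthesis of bases and lipids rose as well. Of 33 genes of serine, one-carbon and nucleotide synthesis 28 were higher and 1 was lower, with a median of 1.06. Phgdh, the entry enzyme of serine synthesis, went from 29.2, 28.4 and 29.2 CPM to 143, 146 and 147 CPM, 5.03-fold higher with little spread. Psph rose by 2.17 and Psat1 by 1.81, which completes the 3 steps of that pathway. Mthfd2, of the mitochondrial folate cycle, rose from 107, 135 and 127 CPM to 326, 371 and 342 CPM, and Cad, which starts pyrimidine synthesis, rose 2.15-fold. Odc1, which starts polyamine synthesis, measured 353, 329 and 372 CPM at 6 h and 351, 328 and 303 CPM at 24 h, a change of -0.10 ± 0.10 (adjusted p = 0.377).

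Of 32 genes of sterol and fatty acid synthesis 23 were higher and 1 was lower, with a median of 0.75, and without the mouse labelled WT 1, 21 were higher and none was lower. Hmgcs1, an early enzyme of the sterol pathway, went from 111, 109 and 117 CPM to 193, 216 and 194 CPM. Scd2, a fatty acid desaturase, rose 4.23-fold.

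Genes of protein quality control were mostly higher. Of 35 proteasome subunits 33 were higher and 1 was lower (median 0.68), or 32 and 1 without the mouse labelled WT 1. The lower one was Psmb10, at -0.42 ± 0.11 (adjusted p = 0.00275), a subunit of the immunoproteasome. Of 36 chaperones and folding genes 25 were higher and 4 were lower (median 0.45). Hspd1, the mitochondrial chaperonin, went from 280.5, 309.8 and 283 CPM to 799, 876 and 776 CPM, and Hsp90aa1 from 163, 153 and 152 CPM to 301, 391 and 333 CPM. Xbp1 and Ddit3, factors of the unfolded protein response, fell by 0.48 and 0.93. The other 2 falls called were of more than log2 1, and the lowest change in the list was -2.71.

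Over all genes, the largest rises among those of at least 10 CPM and without overlap were those of Hist1h2bj, Rrm2, Mcm10, Pclaf, Aunip, Lrr1, Ccne1 and Ajuba, with log2 changes from 6.63 down to 5.23. Without the mouse labelled WT 1 the change of Lrr1 was 5.94, and without mouse WT 4 that of Hist1h2bj was 7.24. Pclaf encodes a partner of Pcna, Aunip a partner of Aurora A, and Lrr1 a subunit of the ligase that unloads the helicase. Aunip was the most even, at 1.29, 1.12 and 0.925 CPM at 6 h and 44.5, 44.9 and 44.7 CPM at 24 h.

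The largest falls were of another kind. They were Calca, Ramp3, Areg, Cxcl10, Neurl3, Cxcr4, Trp53inp1 and Ighg2b, with log2 changes from -8.86 to -3.51. Calca encodes calcitonin gene-related peptide. Calca held 688 counts in the 6 h libraries and 1 count in those of 24 h, a ratio of 634 with a 95% interval from counting error of 113 to 25094. Cxcr4, the receptor for the chemokine of bone marrow, went from 236, 166 and 143 CPM to 21.7, 7.65 and 13.8 CPM. Areg, a growth factor, was 19.6-fold lower. Ighg2b, an immunoglobulin constant region and a gene of B lineage cells, was at 199, 38.87 and 42.3 CPM at 6 h and at 14.5, 3.34 and 5.75 CPM at 24 h, with WT 1 the highest at both times.

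The same interval was measured in the Aim2-/- mice. A difference between genotypes in the change from 6 h to 24 h was called in 26 of 15325 genes (0.170%), while 2237 had an unadjusted p under 0.05. Without the mouse labelled WT 1 it was called in 172, and without the replicate block in none, with 1152 at an unadjusted p under 0.05, all by edgeR's quasi-likelihood test. The median change of the mitosis list was 2.66 in Aim2-/- cells and 3.69 in WT cells, and that of the replication list was 2.22 and 2.61. The difference of these medians was not tested. Single genes of these lists passed the test of the difference in 2 cases. Mad2l1, of the spindle checkpoint, rose from 18.6, 13.3 and 13.8 CPM to 133, 147 and 139 CPM in WT cells, and its change was lower by 0.79 on the log2 scale in Aim2-/- cells (adjusted p = 0.0452). Rpa2, of the protein that coats single-stranded DNA, had a change that was lower by 0.53 in Aim2-/- cells (adjusted p = 0.0452). For both the 24 h levels of the genotypes overlapped, and the Aim2-/- libraries were the higher ones at 6 h.

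**Figure D5:**
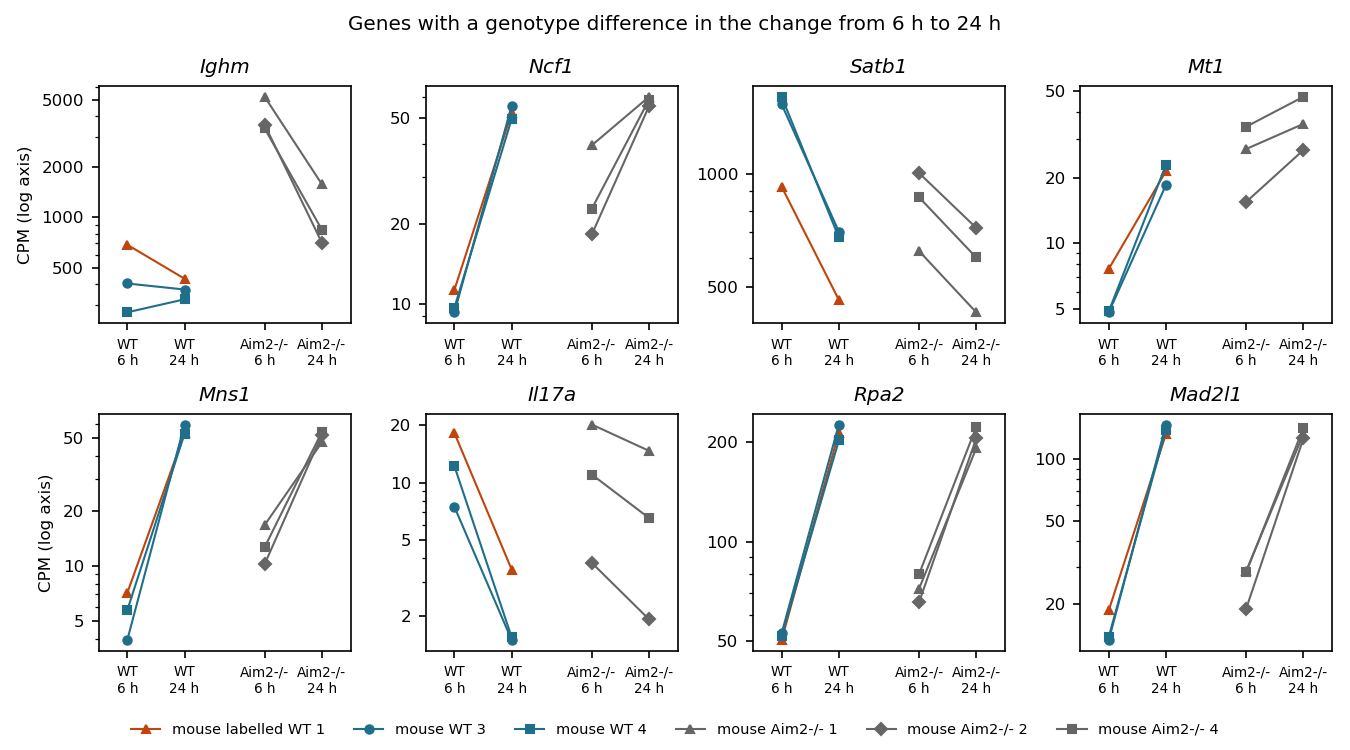
CPM (log axis) at 6 h and 24 h in each WT and Aim2-/- mouse, 1 line per mouse, for 8 genes whose change differed between the genotypes. For Mns1, Rpa2 and Mad2l1 the 24 h values overlap and every Aim2-/- mouse lies above the WT mice at 6 h, and for Ighm the Aim2-/- libraries at 6 h lie at 3394 to 5244 CPM.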

How the data were processed

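Spleen CD4+ T cells of WT and Aim2-/- mice were sequenced at 4 times of stimulation, as 24 TruSeq stranded mRNA libraries. The deposited values are raw counts per gene, which the authors made with STAR on GRCm38 with Ensembl release 94 annotation. The tool versions, and the strand setting of the counting, are not given in the sources used here, so antisense and overlapping genes cannot be told apart. The submitters' processing notes also name DESeq2 and edgeR.

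Counts were tested with edgeR 4.0.16 (quasi-likelihood F test, two-sided, TMM factors, filterByExpr with a minimum count of 10) in R 4.3.3, on 24 libraries with 8 group means and the mouse as a block within genotype. P-values were adjusted by Benjamini-Hochberg over 15325 genes, and log2 fold changes are given with their SE. Of 54446 gene IDs 54409 matched a symbol. The filter left out 16042 genes with counts. The scripts were tested on simulated data. The mouse numbers come from the source names, and the check of the pairing gave correlations of 0.362, 0.179 and 0.207 between the 6 h and 24 h deviations of the same mouse, against -0.252 to 0.0714 between different mice. Whether the times of 1 mouse came from 1 culture is not given in the sources used here. With the mouse as a block, p-values measure the spread left within mice, over all 24 libraries and with 12 residual degrees of freedom. The WT change rests on 3 mice.

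The 6 libraries held 20440765 to 21627018 counts, so that a floor of 3 counts is 0.139 to 0.147 CPM in 1 library. Intervals and floors cover counting error only. Chi-square per degree of freedom between replicates was 6.53 to 26.01, and no pair agreed within sampling noise. Named genes are a fixed set of key genes, the 8 largest rises and falls of at least 10 CPM without overlap, up to 3 rises and 3 falls per list of at least 5 CPM, and genes whose change differed between genotypes. Both CPM cuts apply to the group with the higher mean. Some genes that this rule names are not reported here. The members and lists were chosen with earlier results of these data known. Promoters were read from RefSeq tables. Alternatives were other scalings and filters, limma-voom 3.58.1, DESeq2 1.42.0, fits without the replicate block or on fewer libraries, and each library or mouse left out.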

Additional observations from a re-analysis of the deposited data

Results flagged for a closer look

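A change between 6 h and 24 h that differed between genotypes was tested as an interaction by edgeR's quasi-likelihood test, and 8 genes are given here, as the Aim2-/- change minus the WT change on the log2 scale. The 24 h libraries of Ighm, the heavy chain of IgM and a gene of B cells, were at 431, 371 and 324 CPM in WT mice and at 1577, 706 and 844 CPM in Aim2-/- mice, and those of 6 h at 687, 403 and 271 CPM and at 5244, 3573 and 3394 CPM. The difference of -1.87 (adjusted p = 0.00273) thus came with genotypes that did not overlap at either time.

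The difference of Ncf1, an oxidase subunit, was -1.20 (adjusted p = 0.0364), that of Mt1, a metallothionein, was -1.36 (adjusted p = 0.0364), and that of Mns1 was -1.35 (adjusted p = 0.0364). Satb1, a chromatin organiser of T cells, had a difference of 0.60 (adjusted p = 0.0364), falling in both genotypes. Il17a had a difference of 1.89 (adjusted p = 0.0452), with 24 h levels of 14.7, 1.91 and 6.51 CPM in Aim2-/- mice and of 3.49, 1.49 and 1.54 CPM in WT mice. Rpa2 had a difference of -0.53 and Mad2l1 of -0.79 (both adjusted p = 0.0452). The mouse labelled WT 1 is among the WT mice in each of these tests. Its Aim2 level was near that of Aim2-/- mice and within their range only at 24 h. Its Ighm level was below that of every Aim2-/- library at both times.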

How the results depend on the processing

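Of 157 named genes, 151 were called, and 139 of them kept direction and call under every alternative run. Over 2826 values 56 lost the call, 3 gained it and 10 changed sign, all of them in Aim2 and Ifng, which were called under none of these. Aim2, at -0.14, was 0.02 without the replicate block and ranged from -0.37 to 0.12 with 1 library left out and from -0.41 to 0.15 with 1 mouse left out, with 0.12 and 0.15 when it was the 24 h library of WT 1 or that mouse. Ifng, at 0.02, was -0.08 with library totals, -0.02 with no filter, -0.00 with a minimum mean of 1 CPM, -0.03 on the 6 libraries alone and -0.10 to 0.15 with 1 library or mouse left out. The count of genes called was 8746 to 9320 when 1 library or mouse was left out and 8831 without the replicate block, which ended the call of 11 named genes. Library totals in place of TMM shifted the median by -0.10 and the share of higher calls from 50.2% to 44.02%. Higher calls among histones fell to 5 with a minimum mean of 1 CPM, where fewer genes are tested. Higher calls among amino acid transporters were 2 without the block and 3 without WT mouse 3 or 4.

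The genotype difference depended most on the setting, and the cause was not tested. It was called in 14 genes by limma-voom, 237 by DESeq2, 739 with no filter on low counts and 0 without the replicate block (1152 at an unadjusted p under 0.05). With 1 library or mouse left out it ranged from 1 to 325, with 285 without the 24 h library of the mouse labelled WT 1, 172 without that mouse and 325 without Aim2-/- mouse 2. Against TMM-scaled library sizes, the shares of counts changed by 0.596 percentage points for ribosomal proteins, 0.388 for glycolysis and -0.182 for cytokines. Depth limits the histone genes, many of which are near the floor at 6 h.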
